A study of Mus musculus with 2 samples.

Results

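The miR-183 cluster is a group of 3 miR hairpins, miR-183, miR-96 and miR-182, that are cut from 1 primary transcript. Each hairpin has a 5p and a 3p arm, so the cluster has 6 entries among the 1886 mature miRs counted in mouse sperm. The entries were chosen by name, as every entry called miR-183, miR-96 or miR-182, and the cluster itself was selected on read counts that were already known, among them the high count of miR-182-5p. The levels below are therefore a description and were not tested. The counts came from small RNA sequencing of sperm of wild-type C57BL/6J mice aged 3 months, in 2 libraries described as independent biological replicates of naive animals. Sperm was released from the epididymis and treated with a hypotonic detergent buffer to remove other cells. The number of mice behind each library is not given in the sources used here. The names of the deposited tables carry the word POSTTREAT, whose meaning those sources do not explain. Both libraries belong to the same and only group, so no condition was compared with another. An exact test over 2 libraries cannot give a two-sided p below 0.5.

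A hairpin of this kind is released from the primary transcript in the nucleus and cut again in the cytoplasm into a short duplex, of which usually 1 arm is kept by an Argonaute protein and the other is degraded. The kept arm finds its target mRNAs mainly through its seed, the bases 2 to 8 counted from the 5′ end. The miR-183 cluster is best known from sensory cells such as photoreceptors and the hair cells of the inner ear, and its members are also made in epithelia.

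The 5p arms, which carried nearly all reads of the cluster, are shown first because their seeds are near copies of one another. The sequences are those of RefSeq on GRCm38.p6, where all 6 entries were found. They are written 5′ to 3′ with the seed in capitals.
miR-182-5p: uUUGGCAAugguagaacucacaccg
miR-183-5p: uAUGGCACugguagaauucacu
miR-96-5p: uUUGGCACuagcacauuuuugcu
The seeds of miR-182-5p and miR-96-5p are the same at 6 of 7 bases, those of miR-183-5p and miR-96-5p at 6 of 7, and those of miR-182-5p and miR-183-5p at 5 of 7. What all 3 have in common is the run UGGCA at bases 3 to 7. Of the 1604 entries of the tables that name a single miR with a RefSeq sequence, 4 (0.249%) have these letters at this place. They are the 3 arms shown and miR-7022-5p, which had 0 reads in both libraries. The run was taken from the 3 arms, so they match it by construction. Beyond the seed the likeness takes another pattern. Laid side by side from base 1 without gaps, miR-182-5p and miR-183-5p share 18 of 22 bases (81.8%), miR-183-5p and miR-96-5p 13 of 22 (59.1%), and miR-182-5p and miR-96-5p 12 of 23 (52.2%).

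The 3p arms are shown for contrast, again with the seed in capitals.
miR-182-3p: gUGGUUCUagacuugccaacu
miR-183-3p: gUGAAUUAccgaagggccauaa
miR-96-3p: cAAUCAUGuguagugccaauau
Their seeds have between 0 and 3 of 7 bases in common, and each pair shares 7 bases from base 1, between 31.8% and 33.3% of those compared. Overlap with other miRs was looked up among the 1679 mature sequences of RefSeq. No other mature miR shares a run of 15 bases with any of the 6 entries, where 15 is the shortest read the authors kept. The whole seed is shared by miR-96-5p with miR-1271-5p and by miR-96-3p with miR-3475-5p, which had 0 reads in both libraries. miR-1271-5p has no entry among the 1886 mature miRs counted, so its level is not known. The other 4 entries share their seed with no other mature miR of that table.

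The 3 hairpins lie on the minus strand of chromosome 6 and are read in the order miR-183, miR-96 and miR-182. On GRCm38 the Mir183 hairpin (ENSMUSG00000065619.2) is at chr6:30169668-30169737, Mir96 (ENSMUSG00000065586.1) at chr6:30169446-30169551 and Mir182 (ENSMUSG00000076361.1) at chr6:30165918-30165992. The submitters' processing notes name mm10 and GRCm38, which is the same build. Only 116 bases separate Mir183 from Mir96, while 3453 bases separate Mir96 from Mir182. GENCODE M21 has no gene over this stretch of 3820 bases other than the 3 hairpins. RefSeq places all of them within the long non-coding RNA gene Mirc35hg, chr6:30158640-30174125, whose start lies 4388 bases before the Mir183 hairpin. To show where the arms lie, the 3 hairpins are given whole, with both mature arms in capitals and the 5p arm first.
Mir183: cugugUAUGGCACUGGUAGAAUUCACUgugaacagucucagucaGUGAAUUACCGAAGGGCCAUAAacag
Mir96: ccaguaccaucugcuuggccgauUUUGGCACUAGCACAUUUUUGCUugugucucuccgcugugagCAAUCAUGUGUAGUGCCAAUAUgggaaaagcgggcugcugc
Mir182: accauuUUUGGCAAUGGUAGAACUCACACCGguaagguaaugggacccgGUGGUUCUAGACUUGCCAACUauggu

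The libraries held 4049599 miR reads in replicate 1 and 5648067 in replicate 2. Levels are given as CPM, the reads of an entry per 1000000 miR reads of its library, and 3 reads, taken as the least that can be told from none, stand for 0.741 CPM and 0.531 CPM. The mature arms are between 21 and 25 bases long, about the length of a small RNA read. CPM of different miRs were set side by side without a correction for length or for how readily a sequence enters a library. The lengths of the counted reads are not given, and reads as short as 15 bases could enter. miR-10a-5p and miR-10b-5p together made up 78.0% of replicate 1 and 80.4% of replicate 2, so every other miR shares the small remainder. The intervals below are Wilson 95% intervals, and they cover counting error only.

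All 6 entries together had 61055 reads in replicate 1 and 76748 in replicate 2. This was 1.51% (1.496% to 1.520%) and 1.36% (1.35% to 1.37%) of the miR reads, a mean of 1.43% ± 0.105 (SD, n = 2). With miR-10a-5p and miR-10b-5p left out of the total, the cluster took 6.85% and 6.92% of the remaining miR reads. Reads were found in both libraries for 5 of the 6 entries. The same held for 378 of all 1886 entries, or 20%.

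miR-182-5p, the 5p arm of the last hairpin, was by far the most abundant member. It had 54950 reads in replicate 1 and 69140 in replicate 2, which is 13569 CPM (13457 to 13682) and 12241 CPM (12151 to 12332), a mean of 12905 ± 939 CPM (SD, n = 2). It ranked 6th of the 378 entries with a read in both libraries. miR-183-5p, from the first hairpin, had 5351 and 6886 reads, or 1321 CPM (1286 to 1357) and 1219 CPM (1191 to 1248), with a mean of 1270.3 ± 72.3 CPM (SD, n = 2) and rank 28. Both arms were a little lower in replicate 2 in CPM and a little higher there with TMM scaling, an alternative scaling of the libraries, and in each library the gap between them was far larger. miR-96-5p, from the middle hairpin, had 737 and 711 reads, or 181.99 CPM (169 to 196) and 126 CPM (117 to 135), with a mean of 154 ± 39.7 CPM (SD, n = 2) and rank 62. It was the lowest of the 5p arms in both libraries.

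The 3p arms were close to the limit of what these libraries can show. miR-183-3p had 14 and 8 reads, or 3.46 CPM (2.06 to 5.80) and 1.42 CPM (0.718 to 2.80). miR-182-3p had 3 and 2 reads, or 0.741 CPM (0.252 to 2.18) and 0.354 CPM (0.0971 to 1.29). miR-96-3p had 0 reads and 1 read, where the upper ends of the intervals are 0.949 CPM and 1.003 CPM. miR-183-3p was the only 3p arm above 3 reads in either library, and the intervals of the replicates overlap for each of the 3p arms.

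**Figure D1:**
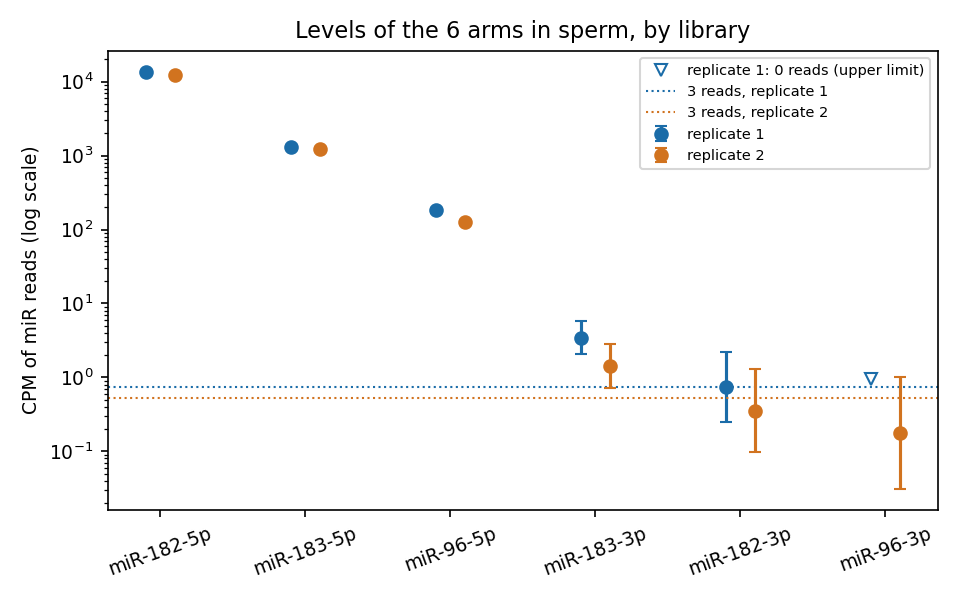
CPM of each of the 6 arms (vertical axis, log scale) in replicate 1 and replicate 2, with Wilson 95% intervals for counting error, hidden by the symbols for the 5p arms. The 5p arms fall from 12905 to 1270.3 to 154 CPM on average. Dotted lines mark 3 reads, with miR-183-3p above them and the reads of miR-182-3p and miR-96-3p at or below them. The open triangle is the upper limit for miR-96-3p, which had 0 reads in replicate 1.

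In replicates 1 and 2, miR-182-5p ranked 6th and 5th of the 1886 entries, miR-183-5p 30th and 27th, and miR-96-5p 61st and 65th. The order of a member and its direct neighbours was mostly not fixed by these libraries. The entry just above miR-182-5p in the order of mean CPM was miR-148a-3p, at 12984 ± 3563 CPM (SD, n = 2), and it was above miR-182-5p in replicate 1 and below it in replicate 2. The entry just below was miR-30a-5p, at 9567 ± 377 CPM, which was lower in both libraries by more than either SD. miR-183-5p lay between miR-204-5p (1374 ± 355 CPM) and miR-25-3p (1082 ± 544 CPM), and miR-96-5p between miR-425-5p (154 ± 86.4 CPM) and miR-145a-3p (152 ± 42.9 CPM). Each of these 4 neighbours was within its SD of the member and changed sides from 1 library to the other, so their order is not settled. miR-183-3p ranked 256th, level with miR-471-3p at the same 14 and 8 reads and just below miR-434-5p at 6 and 20 reads. miR-182-3p ranked 353rd, level with miR-6948-3p at the same 3 and 2 reads and just below miR-292a-3p at 4 reads and 1 read. These ranks rest on so few reads that they order nothing.

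All 3 hairpins kept the 5p arm. In miR-182, the share of the 3p arm was 0.00546% (54953 reads, 0.00186% to 0.0161%) in replicate 1 and 0.00289% (69142 reads, 0.000793% to 0.0105%) in replicate 2. In miR-183 it was 0.261% (5365 reads, 0.156% to 0.438%) and 0.116% (6894 reads, 0.0588% to 0.229%). In miR-96 it was 0 of 737 reads, with an upper end of 0.519% (3 reads would be 0.407%), and 0.140% (712 reads, 0.0248% to 0.791%). The 3p share of miR-183 lay above that of miR-182 in both libraries, with intervals that do not overlap. The interval of miR-96 takes in the shares of miR-183, so these hairpins could not be ordered at this depth. Such a strong preference was common in these libraries. Of 89 hairpins with both arms listed and at least 100 reads in each library, 55 (61.8%) had at least 99% of their reads on 1 arm, and the 3 of this cluster were among them. The preferred arm was the 5p arm in 52 of the 89 and the 3p arm in 37.

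The 3 mature 5p arms of the transcript had unequal numbers of reads. How readily each sequence enters a library was not measured, and a difference of that kind could recur in both libraries. miR-182-5p exceeded miR-183-5p 10.3-fold in replicate 1 (exact 95% interval 9.98 to 10.6) and 10.04-fold in replicate 2 (9.79 to 10.3), on the log2 scale 3.34 ± 0.02 (SD, n = 2). This ratio hardly moved between the libraries. miR-183-5p exceeded miR-96-5p 7.26-fold (6.72 to 7.85) and 9.68-fold (8.96 to 10.5), on the log2 scale 3.07 ± 0.29. miR-182-5p exceeded miR-96-5p 74.6-fold (69.3 to 80.3) and 97.2-fold (90.3 to 104.8), on the log2 scale 6.41 ± 0.27. Of the reads on the 5p arms, miR-182 gave 90.1% ± 0.0524, miR-183 8.87% ± 0.146 and miR-96 1.07% ± 0.199 (SD, n = 2). The order was the same in both libraries, and each step was many times the difference between the libraries. Along the transcript, the lowest arm comes from the middle hairpin, and the arms of the nearest neighbours, Mir183 and Mir96, differ in reads. A link between place and level was not tested.

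**Figure D2:**
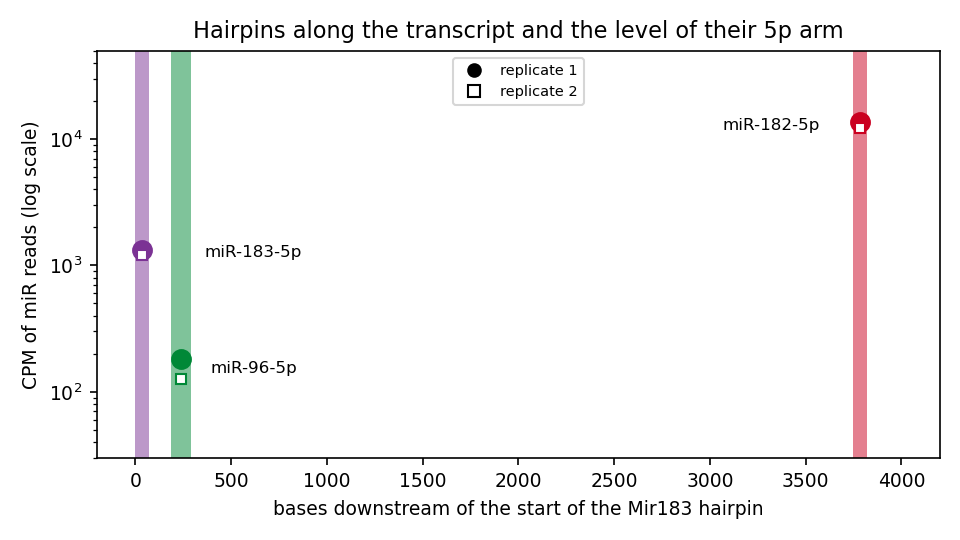
The 3 hairpins as bands along the transcript, in bases downstream of the start of the Mir183 hairpin, with the CPM of their 5p arm (vertical axis, log scale) in replicate 1 (filled circles) and replicate 2 (open squares). miR-96-5p, 116 bases after Mir183, is the lowest, and miR-182-5p, 3453 bases further on, is the highest.

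The libraries were also compared arm by arm. From replicate 1 to replicate 2 the log2 ratio of CPM was -0.15 for miR-182-5p (exact 95% interval -0.16 to -0.13), -0.12 for miR-183-5p (-0.17 to -0.06) and -0.53 for miR-96-5p (-0.68 to -0.38). The direction of the first 2 depends on the scaling, and with TMM scaling the values were 0.20, 0.23 and -0.18. TMM moved the median log2 ratio of the 323 entries that reached 10 reads over both libraries from -0.29 to 0.06. Relative to this median, miR-182-5p was at 0.14, miR-183-5p at 0.17 and miR-96-5p at -0.24, whichever scaling was used. Of the 323 entries, 263 lay farther from the median than miR-182-5p, 255 farther than miR-183-5p and 228 farther than miR-96-5p. The 5p arms thus lay closer to the median than most entries, although many of these have few reads. miR-183-3p, at -0.96 from the median with 14 and 8 reads, lay farther out, and 88 of the 323 entries were farther still. Among the 165 entries that reached 100 reads over both libraries, 114, 109 and 121 lay farther from their median than miR-182-5p, miR-183-5p and miR-96-5p.

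Within the cluster the scaling drops out. The ratio of miR-182-5p to miR-183-5p changed by -0.03 on the log2 scale from replicate 1 to replicate 2 (95% interval from the counts -0.09 to 0.02), which is within counting error. The ratio of miR-183-5p to miR-96-5p changed by 0.42 (0.26 to 0.57) and that of miR-182-5p to miR-96-5p by 0.38 (0.23 to 0.53), which is more than counting error. The interval does not hold the variation between animals or library preparations, so the change describes these libraries. Of the 4 entries of the cluster that reached 10 reads over both libraries, 1 differed more than 2-fold between the libraries. It was miR-183-3p, with a log2 ratio of -1.25 (exact 95% interval -2.75 to 0.07) after 0.5 reads were added to each count, and it was not past 2-fold with TMM scaling (-0.90). Over all 323 entries, 99 (30.7%) differed more than 2-fold.

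**Figure D3:**
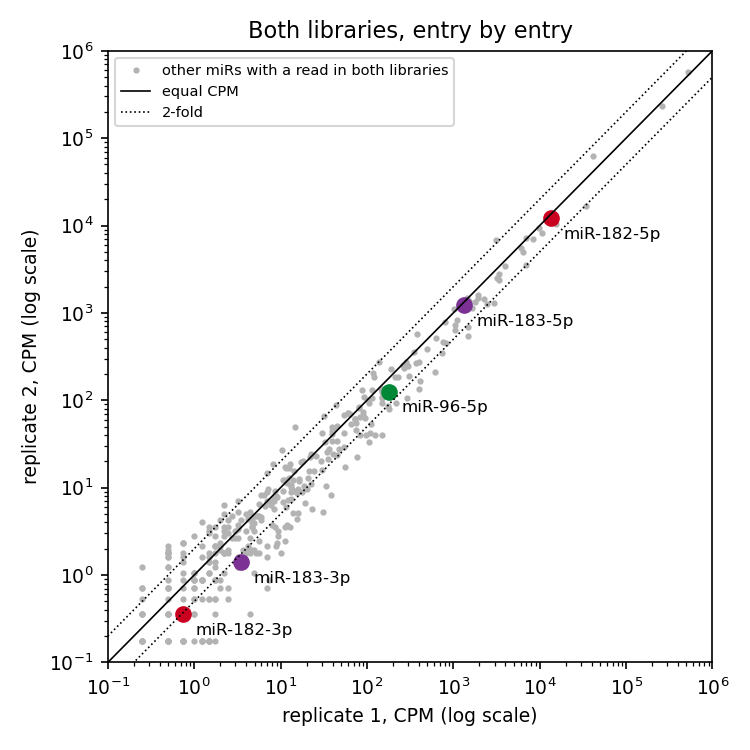
CPM in replicate 1 (horizontal axis, log scale) against replicate 2 (vertical axis, log scale) for the 378 entries with a read in both libraries, with the entries of the cluster in colour. The 5p arms lie close to the line of equal CPM and within the dotted 2-fold lines, and the 3p arms lie at the lower end, where reads are few.

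The unequal levels were set beside those of other hairpins that neighbour each other in the genome. Of 20 clusters listed from general knowledge, this one included, 19 had at least 2 hairpins with a read in both libraries, each taken by its more abundant arm. The range within the miR-183 cluster was 6.41 ± 0.27 on the log2 scale (SD, n = 2), and the median over the other 18 was 3.95. By range it was number 3 of the 19, after miR-143 with miR-145a (8.36) and miR-191 with miR-425 (7.40), and the widest of the 7 with at least 3 such hairpins. Hairpins without a read in both libraries did not enter these ranges. The miR-449 cluster was therefore not ranked, with miR-449a-5p at 1170 and 599 reads and miR-449c-3p at 0 reads in both. Of the 6 hairpins listed for miR-106a-363 only 2 entered, and its range was the narrowest. In 9 of the other 18 a mature miR is listed for several loci, and its reads cannot be given to 1 of them. No test was made of these differences. The cluster was selected with the high count of miR-182-5p already known, and this arm is the upper end of its range. A wide range was thus favoured in advance. Clusters with a low summed level, such as miR-29b-2 with miR-29c at 39.6 CPM, have less room for a wide range above the least count of 1 read. The rank and the gap to the median are therefore descriptive and do not set the cluster apart.

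The 3 clusters closest to it in summed level were spread over ranges between 3.70 and 6.13. In the cluster of miR-99b, let-7e and miR-125a, the highest was miR-99b-5p at 7100.03 ± 111 CPM, followed by miR-125a-5p at 3703 ± 329 CPM and let-7e-5p at 353 ± 8.57 CPM, a range of 4.33. In the pair miR-30a and miR-30c-2, miR-30a-5p was at 9567 ± 377 CPM and miR-30c-5p at 137 ± 17.6 CPM, a range of 6.13 that differs from that of the miR-183 cluster by little more than the SD of the latter, although miR-30c-5p is also made elsewhere in the genome. In the epithelial pair miR-200c and miR-141, miR-141-3p was at 7721 ± 911 CPM and miR-200c-3p at 610 ± 208 CPM (SD, n = 2 throughout), a range of 3.70. Between the libraries, the log2 ratios of the members of the miR-183 cluster spread over 0.42. This spread was smaller in 11 of the other clusters and larger in 7, from 0.05 to 2.14. It is the gap between the extreme members, so it tends to grow with more hairpins and with fewer reads. The value of 2.14 was that of miR-17-92, with 6 hairpins, where miR-18a-5p had 124 and 30 reads.

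**Figure D4:**
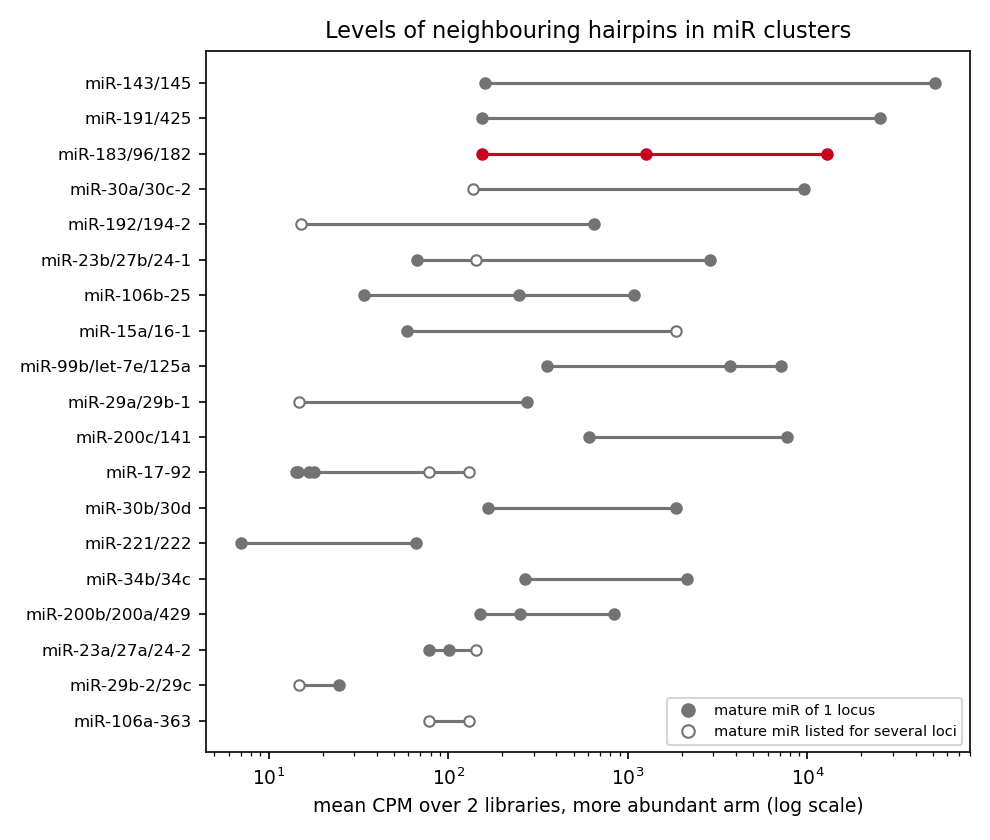
Mean CPM over the 2 libraries (horizontal axis, log scale) of each hairpin with a read in both libraries, taken by its more abundant arm, in 19 clusters ordered by the width of their range, with open circles for mature miRs listed for several loci. The miR-183 cluster, in red, spans 6.41 on the log2 scale and is number 3 from the top.

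Marker miRs of several cell types were present beside the cluster. Those of germ cells summed to 0.570% of the reads in replicate 1 and to 0.231% in replicate 2. Of their 26 entries, 16 had a read in both libraries and 7 had 0 reads in both, among them miR-741-3p and miR-871-5p, while miR-34c-5p, a miR of late spermatogenesis, had 12078 and 7420 reads. The miRs of epithelium took 1.08% and 0.886% (12 of 14 entries with a read in both libraries), those of smooth muscle and stroma 4.13% and 6.26% (8 of 9), those of blood 0.333% and 0.722% (9 of 12), and those of neurons and retina 0.214% and 0.134% (6 of 9). 1 entry carried most of several lists. Without miR-143-3p the list of smooth muscle and stroma was at 0.0483% and 0.0685%, and without the joined entry of miR-486a-5p and miR-486b-5p that of blood was at 0.0223% and 0.0333%. Without miR-141-3p the epithelial list was at 0.245% and 0.178%. The list of germ cells was at 0.271% and 0.099% without miR-34c-5p, and that of neurons and retina at 0.0517% and 0.0218% without miR-204-5p. From replicate 1 to replicate 2 the log2 ratios in CPM were -1.30, -0.29, 0.60, 1.12 and -0.68 for the whole lists in this order. Those of the cluster's 5p arms were between -0.53 and -0.12. The median over the 323 entries compared above was -0.29 in CPM and 0.06 with TMM scaling. In CPM the epithelial list thus moved like the median entry, and a fall relative to other miRs is not shown. Its entries did not all move alike, with miR-141-3p at -0.24 and miR-205-5p at 0.99. The part of the listed cell types in the level of the cluster was not tested. With RNA of whole samples, fewer cells of a type and less RNA per cell cannot be told apart.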

How the data were processed

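Small RNA of sperm was sequenced in 2 libraries. The authors trimmed low-quality ends, removed adapters with cutadapt (version 1.8.1 in the submitters' processing notes), dropped reads shorter than 15 bases and mapped the rest with bowtie 1.1.2, first without mismatches to miR and piRNA sequences. Reads with added or changed end bases can be lost at that step. HTSeq is also named in the notes. The miR annotation release is not given in the sources used here. The authors deposited raw read counts per mature miR, without normalization. The tables close with 5 summary entries that name no miR, of which the reads assigned to no miR (38.1% and 26.3% of all reads listed) are the only ones above 0, and these were left out.

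Counts were scaled to CPM. Intervals are Wilson intervals for shares, exact binomial intervals for a ratio of 2 counts, and normal intervals on the log scale for a change of such a ratio. The miRs named are the 6 entries, their neighbours in the order of mean CPM, miRs with the same seed and the 3 clusters closest in summed level. Others in the text (the core of the seed, marker miRs, extremes) were picked after their values were seen. The members and all lists were chosen with earlier results of these data known. TMM (edgeR 4.0.16) and DESeq2 1.42.0 size factors (R 4.3.3) were alternatives. The biological coefficient of variation between the libraries was 35.9%. Values were computed with scipy 1.17.1, pandas 2.3.3 and numpy 2.4.6 in Python 3.11.15 and plotted with matplotlib 3.10.9. The code for log2 ratios and for Wilson and exact intervals was tested on simulated counts. Other parts of the code were not tested in this way. No condition was compared, so no p-value is given.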

Additional observations from a re-analysis of the deposited data

How the results depend on the processing

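With miR-10a-5p and miR-10b-5p left out of the total, the cluster was at 68851 CPM, miR-182-5p at 61996, miR-183-5p at 6106 and miR-96-5p at 734 CPM, and with all reads of the tables as the total the cluster was at 9669 CPM. These only change the denominator. The log2 ratio of replicate 2 to replicate 1 turned positive for miR-182-5p (0.20 with TMM, 0.19 with DESeq2 size factors, 0.016 without the miR-10 arms) and for miR-183-5p (0.23, 0.23 and 0.048), and moved for miR-96-5p (-0.18, -0.19 and -0.37). Among entries that reached 100 reads over both libraries, 35 of 165 (21.2%) differed more than 2-fold in place of 99 of 323 (30.7%), and the cause was not tested. The count came to 124 over all entries with reads in both libraries, 82 with TMM and 81 with DESeq2 size factors. With at least 10, 20 or 100 reads, or 10 CPM, in each library, 3 entries of the cluster were detected in place of 5. The number was 4 with at least 5 reads in each library, 6 in replicate 2 alone, and 5 in replicate 1 alone or with replicate 2 thinned. The share of all entries that passed is not given for these settings, so the counts do not set the cluster apart from other miRs. The levels of the 3p arms rose with the change of denominator like those of the 5p arms. The other alternatives tried left levels, arm shares and log2 ratios within the SD between the libraries or within the interval from the counts. Each of 2 libraries is by construction within an SD of the mean of both, so leaving out a library shows no stability. No paired analysis was possible because there is 1 group.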

Other observations

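Other miRs known from retina and neurons were listed in the same libraries. miR-204-5p, known from the pigment epithelium of the retina, had 6580 and 6343 reads, or 1374 ± 355 CPM (SD, n = 2), close to miR-183-5p. Its relative miR-211-5p had 18 and 2 reads. miR-9-5p, a miR of neural progenitors, had 1653 and 939 reads, or 287 ± 171 CPM, and miR-124-3p, a miR of neurons, had 36 and 45 reads, or 8.43 ± 0.652 CPM. These values were picked after they were seen.

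The 5p arms of the cluster all begin with U and the 3p arms with G or C. Among the 319 entries that name a single miR, had a read in both libraries and have a RefSeq sequence, 150 (47.0%) begin with U.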
